A study of Mus musculus with 39 samples.

Results

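The data describe 10 imprinted genes of 7 loci in mouse islets of Langerhans, the hormone-secreting clusters of the pancreas. Peg3, Usp29 and Zim1 lie in the Peg3 locus, Meg3 and Rian lie in the Meg3 locus, and Nnat, Sgce, Mest, Zdbf2 and Gatm each have a locus of their own. Each was taken as the probe set annotated with that symbol alone, and they are 10 of 19938 genes measured in the same way. The genes were chosen by their differences between groups on these same arrays. Those differences, and counts of members that pass a threshold, are therefore descriptions in every comparison and no test of the set. Islet RNA was labelled with biotin and hybridized to 39 Affymetrix Mouse Gene 1.0 ST arrays. The first experiment set Pdx1-creLate mice (4 arrays) against wild-type littermates of the same backcross generation (N8), called control here (4 arrays), none of them pregnant. The Pdx1-creLate transgene drives Cre in beta cells from a Pdx1 promoter fragment, and a human growth hormone minigene is known to sit beside the Cre, so all 4 transgenic arrays share both. The second experiment followed C57bl6/J females that were non-pregnant (n = 4), pregnant for 3.5 days (n = 3) or for 6.5, 9.5, 12.5, 15.5 or 18.5 days (n = 4 for each), and lactating at 10 days post partum (n = 4). The labels call the replicates biological and do not say how many animals gave islets to each.

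Imprinting is the expression of a gene from 1 parental allele, set by DNA methylation laid down in the egg or sperm and kept after fertilization by the zinc finger protein ZFP57 and its partner TRIM28. Peg3, Usp29, Nnat, Sgce, Mest and Zdbf2 are expressed from the paternal allele, and Zim1, Meg3 and Rian from the maternal allele. Gatm is known to be imprinted in the mouse placenta. Arrays of this kind measure the sum of both alleles, so they do not show which allele a transcript came from. In beta cells Nnat is known as a proteolipid of the endoplasmic reticulum that takes part in the processing of preproinsulin, and the long non-coding RNA Meg3 is among the abundant non-coding transcripts.

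The values are log2 expression with 1 decimal, made by robust multi-array average, so a step of 1 doubles the signal. Array medians lay between 5.8 and 6.0, and Pearson's r between arrays across the 19938 genes lay between 0.9728 and 0.9956. Called genes are those with an adjusted p under 0.05 over all 19938 genes in limma, a linear model with a moderated variance. Differences are given with their standard error (SE) and levels with their standard deviation (SD), with n = 4 unless stated. In whole islets a change in the number of cells of a type and a change in RNA per cell cannot be told apart. Islet hormone genes were bright on every array, with Ins2 at 11.9 or above and Gcg at 13 or above. The 24 measured markers of acinar cells, which are exocrine cells next to the islets, varied widely, with an array mean of 5.45 to 7.86 at day 3.5 and of 7.45 to 9.3 in non-pregnant mice. The mean of 9 beta-cell markers was 11 to 11.16 in Pdx1-creLate islets and 11.37 to 11.4 in control islets. Markers of PP cells (10.43 to 11.07 in Pdx1-creLate, 11.47 to 11.63 in control) and alpha cells (10.73 to 11, against 11.17 to 11.57 in control) were also lower without overlap. The 5 ductal markers averaged 6.44 to 6.74 in Pdx1-creLate and 5.92 to 6.08 in control islets. Most of these 5 were not raised, since 1 was called higher, 0 lower, and their median difference was −0.15. Of all genes 6.59% were called in this comparison. The 7 stellate markers averaged 6.43 in Pdx1-creLate and 6.76 in control islets. The part of these cell types in the transgenic differences was not tested. Xist was low and Y-linked genes were bright on the Pdx1-creLate and control arrays, as in males, so these groups differ from the C57bl6/J females in sex as well as in the strain their labels give.

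Expression of most members was lower in Pdx1-creLate islets than in control islets. Of the 10 genes, 7 were called lower and 2 higher, where 6.59% of all genes were called in either direction, 3.72% lower and 2.86% higher. The median difference was −0.61 over the 10 genes, against −0.03 over all genes. Such differences chose the members, so nothing is read from these counts and medians. Peg3, Usp29, Zim1, Nnat, Sgce, Mest and Zdbf2 each had their lowest mean of the 10 groups in Pdx1-creLate islets, and Gatm had its highest there. The 4 Pdx1-creLate arrays did not overlap the 4 control arrays for 9 of the genes, and 9.15% of all genes had no overlap. Rian was the exception in both counts. Leaving out an array gave 8 to 10 called genes.

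**Figure D1:**
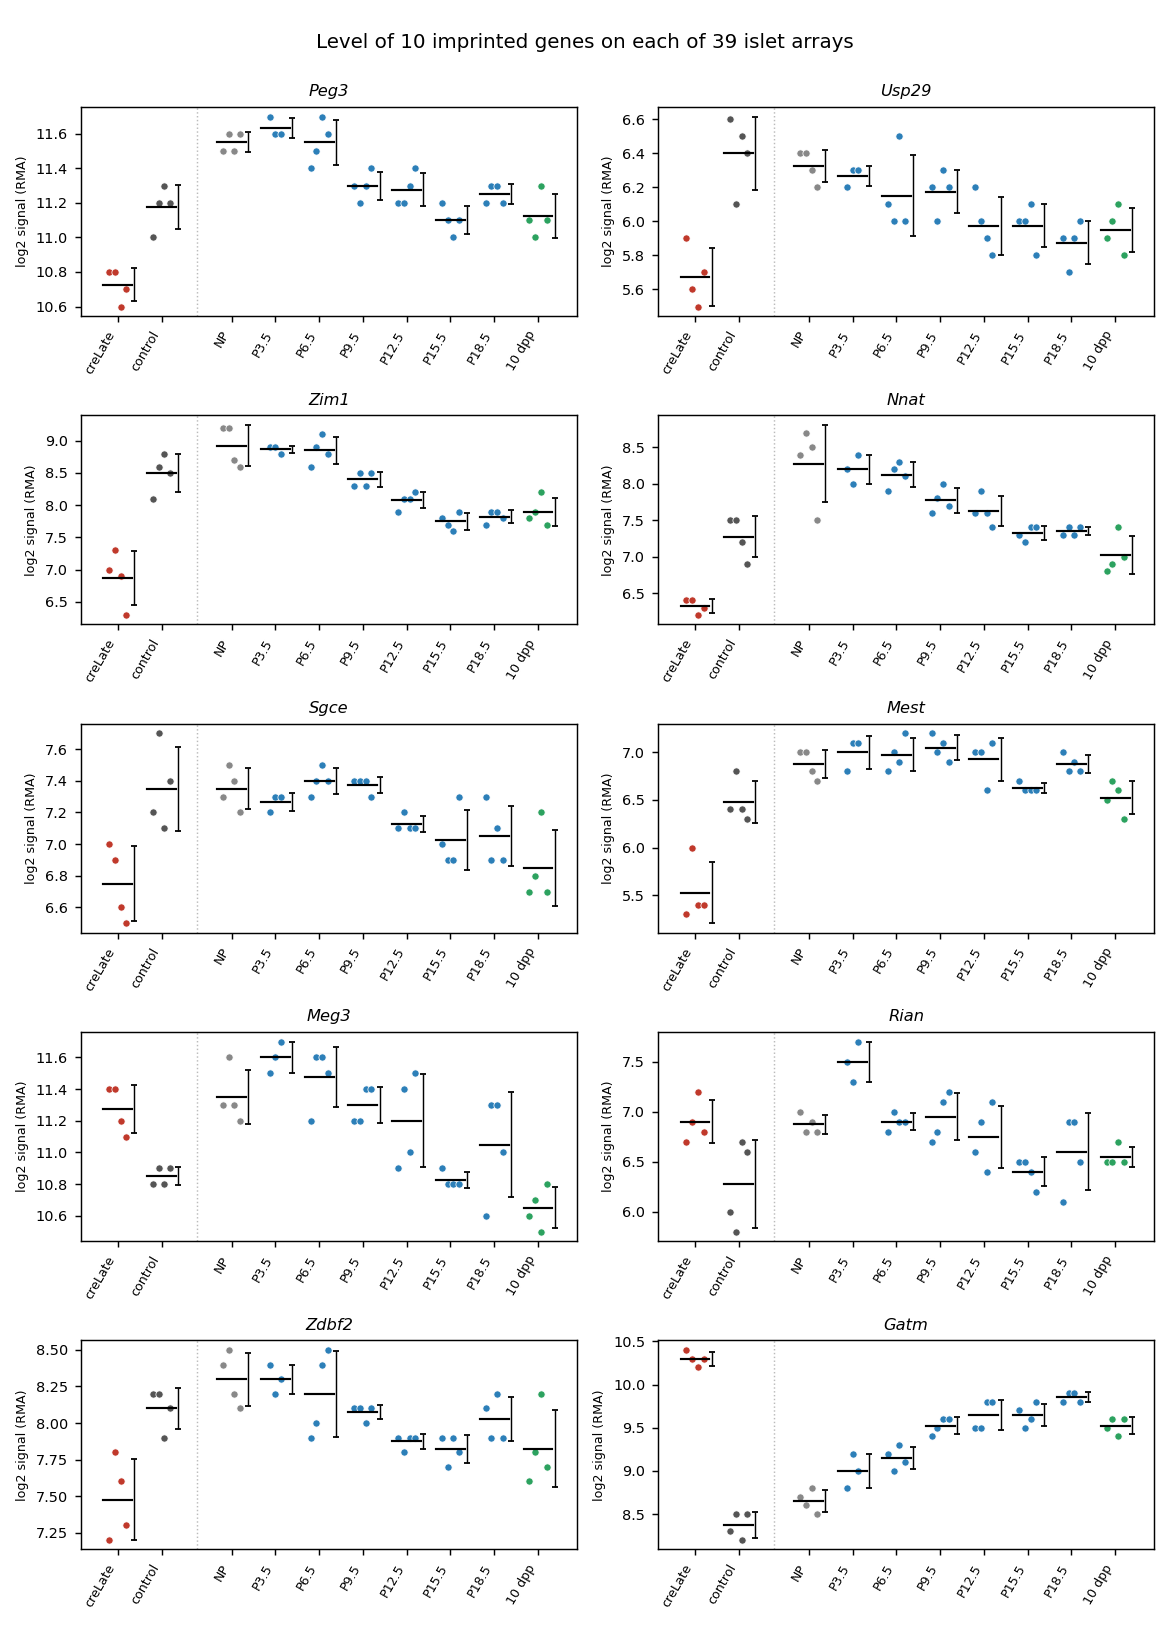
Log2 expression (vertical axis) of the 10 imprinted genes in each of the 10 groups (horizontal axis); every dot is an array, the bar is the group mean and the error bar the SD. Pdx1-creLate arrays (red) are the lowest group for Zim1, at 6.3 to 7.3, and the highest for Gatm, at 10.2 to 10.4.

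Across pregnancy the number of called members was greatest at day 15.5. It was 0 at day 3.5, where 2 had an unadjusted p under 0.05 and 0.0451% of all genes were called. It was 1 at day 6.5 (0.622% of all genes), 4 at day 9.5 (19.4%), 6 at day 12.5 (5.27%), 9 at day 15.5 (8.23%, with 3.7% higher and 4.53% lower) and 6 at day 18.5 (11.1%). For the mean of days 9.5, 12.5 and 15.5, called mid-pregnancy here, 6 members were called (9.24%), and at 10 days post partum 9 were called (12.2%, with 4.46% higher and 7.78% lower). Gatm was the 1 member called higher from day 6.5 on, and every other call was lower. All of them share the same 4 non-pregnant arrays, so they do not support each other. The count at day 12.5 was 2 without non-pregnant replicate 2 and 3 without day 12.5 replicate 2, and the count at day 3.5 was 1 without non-pregnant replicate 1. The 8 C57bl6/J groups differed by limma's F-test in 54% of all genes and in all 10 members, and nothing is read from the members' count, since such differences chose them.

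**Figure D2:**
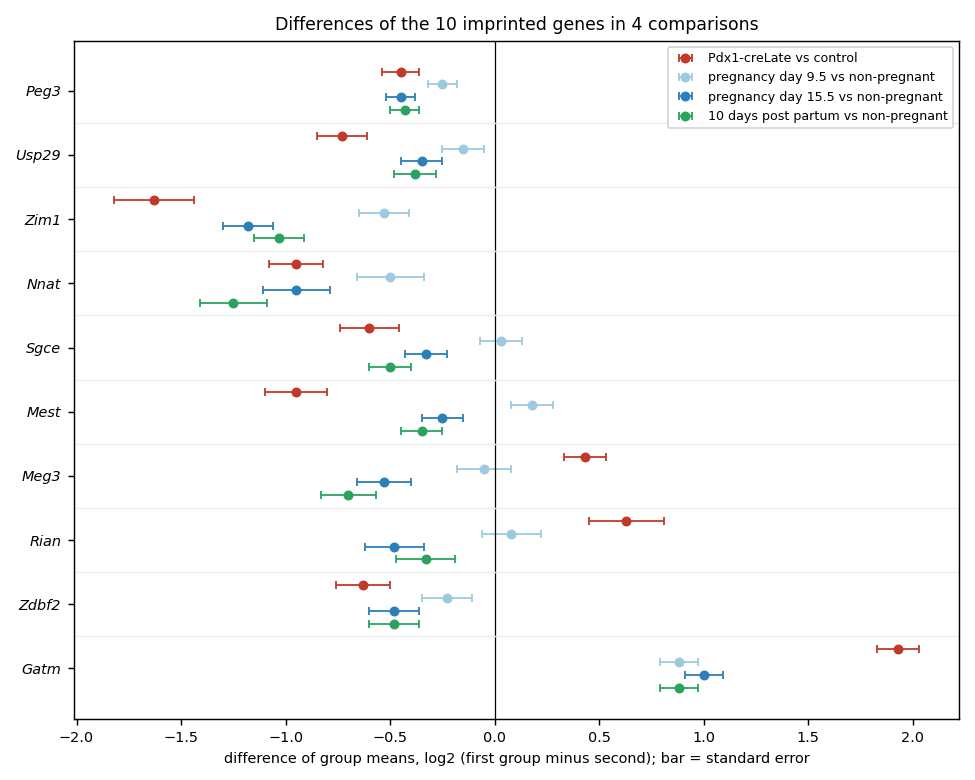
Log2 difference (horizontal axis, with SE bars) of each imprinted gene (vertical axis) in 4 comparisons, namely Pdx1-creLate minus control, and days 9.5 and 15.5 and 10 days post partum minus non-pregnant. Gatm lies right of 0 in every comparison shown, Zim1 and Nnat lie left of 0 in every one, and Meg3 lies right of 0 for the transgenic islets and left of it at day 15.5 and 10 days post partum.

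The Peg3 locus of chromosome 7 (GRCm38.p6) holds Peg3, a zinc finger gene (probe set 10559796, 6703892 to 6730462), Usp29, a gene of the ubiquitin-specific peptidase family (probe set 10549879, 6730559 to 6967220), and Zim1, a further zinc finger gene (probe set 10559790, 6674444 to 6696540). Peg3 and Usp29 are transcribed away from each other. Between the RefSeq starts used for their promoter windows, 6730419 for Peg3 and 6730583 for Usp29, lie 163 bases. Both of these starts lie inside the gene spans given above. The promoter windows of Peg3 and Zim1 are shown because these genes varied together from array to array. Each runs from 250 bases before to 50 after a RefSeq start, and capitals mark the hexamer TGCCGC or its reverse complement GCGGCA, which ZFP57 is known to bind when methylated.
Peg3 promoter, chr7:6730370-6730669 (minus strand): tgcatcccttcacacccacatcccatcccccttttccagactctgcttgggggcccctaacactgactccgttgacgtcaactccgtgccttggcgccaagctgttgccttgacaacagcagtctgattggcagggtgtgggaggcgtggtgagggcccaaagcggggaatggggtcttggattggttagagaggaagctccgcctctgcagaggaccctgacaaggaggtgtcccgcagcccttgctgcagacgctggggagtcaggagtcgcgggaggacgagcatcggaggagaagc
Zim1 promoter, chr7:6696383-6696682 (minus strand): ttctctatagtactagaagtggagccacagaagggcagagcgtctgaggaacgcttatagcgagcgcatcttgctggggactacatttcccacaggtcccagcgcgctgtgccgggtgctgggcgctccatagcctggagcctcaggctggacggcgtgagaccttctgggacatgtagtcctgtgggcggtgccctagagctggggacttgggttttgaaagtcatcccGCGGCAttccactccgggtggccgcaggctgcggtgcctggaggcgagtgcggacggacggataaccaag
The Peg3 window has no hexamer and shares 263 bases with that of Usp29. The Zim1 window holds 1 hexamer and 20 CpG dinucleotides, where the median over 32851 promoter windows is 7.0 CpG. The hexamer, on either strand, is present in 11.6% of those windows, and a match describes the letters alone.

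Zim1 varied most of the 3 genes. In Pdx1-creLate islets it measured 7.0, 7.3, 6.9 and 6.3, against 8.1, 8.6, 8.8 and 8.5 in control islets. All transgenic arrays lay below all control arrays, with a difference of −1.63 ± 0.19, or 3.08-fold lower. In C57bl6/J females Zim1 averaged 8.93 ± 0.32 (SD) in non-pregnant mice and 7.75 ± 0.13 at day 15.5, the lowest of these 8 groups. Days 3.5 and 6.5 overlapped the non-pregnant level. Day 9.5 (8.3 to 8.5) lay below day 6.5 (8.6 to 9.1) and above day 12.5 (7.9 to 8.2), without overlap with either. Relative to non-pregnant islets it was −0.53 ± 0.12 at day 9.5, −0.85 at day 12.5, −1.18 ± 0.12 at day 15.5 and −1.10 at day 18.5. After birth it stayed at that level, with 7.8, 7.9, 8.2 and 7.7 at 10 days post partum against 9.2, 9.2, 8.7 and 8.6 in non-pregnant islets (−1.03 ± 0.12, 2.03-fold lower). Between 10 days post partum and day 18.5 the difference was +0.08, with overlapping arrays.

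Peg3 was the brightest gene of the locus and moved less. It measured 10.8, 10.8, 10.6 and 10.7 in Pdx1-creLate islets and 11, 11.2, 11.3 and 11.2 in control islets (−0.45 ± 0.09, 1.37-fold lower). The groups did not overlap, and the transgenic arrays lay below every array of the C57bl6/J groups too. In pregnancy Peg3 averaged 11.55 ± 0.06 in non-pregnant mice and was −0.45 ± 0.07 at day 15.5, where it measured 11.2, 11.1, 11 and 11.1. Usp29, the dimmest, measured 5.9, 5.6, 5.5 and 5.7 in Pdx1-creLate islets and 6.6, 6.1, 6.5 and 6.4 in control islets (−0.73 ± 0.12, 1.65-fold lower). Its 8 C57bl6/J means spanned 0.45, and its difference from non-pregnant islets was −0.45 at day 18.5 and −0.38 at 10 days post partum. Leaving out 10 days post partum replicate 4 moved the post partum difference to −0.33 and ended the call. Of the 6 other listed genes of the locus 0 were measured, that is, had a probe set annotated with their symbol alone.

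Nnat (probe set 10477986, chromosome 2, 157560078 to 157562525) lies in an intron of Blcap, a gene expressed from both alleles in most tissues. Its promoter window is printed because Nnat had the widest range of C57bl6/J means among the members.
Nnat promoter, chr2:157559828-157560127 (plus strand): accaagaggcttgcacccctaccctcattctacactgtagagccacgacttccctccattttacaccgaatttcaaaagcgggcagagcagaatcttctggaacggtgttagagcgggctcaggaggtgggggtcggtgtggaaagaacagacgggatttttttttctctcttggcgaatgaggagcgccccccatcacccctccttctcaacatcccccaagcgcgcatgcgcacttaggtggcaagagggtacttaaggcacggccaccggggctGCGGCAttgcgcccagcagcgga
The window holds 1 hexamer, in capitals, and 17 CpG dinucleotides. Nnat measured 6.4, 6.4, 6.2 and 6.3 in Pdx1-creLate islets and 7.5, 7.5, 7.2 and 6.9 in control islets, a difference of −0.95 ± 0.13 (1.93-fold lower) without overlap. In C57bl6/J females it measured 8.4, 8.7, 8.5 and 7.5 in non-pregnant islets, and replicate 4 stood well below the other three. The post partum arrays measured 6.8, 6.9, 7.4 and 7.0, so they all lay below the lowest non-pregnant array (−1.25 ± 0.16, 2.38-fold lower). The days between were graded, with −0.50 ± 0.16 at day 9.5, −0.65 at day 12.5, −0.95 ± 0.16 at day 15.5 and −0.93 at day 18.5. Without non-pregnant replicate 4 the difference was −0.76 ± 0.13 at day 9.5 and −1.51 ± 0.13 at 10 days post partum. The call was lost at both days without non-pregnant replicate 2 (−0.36 at day 9.5 and −0.51 at day 12.5) or replicate 3 (−0.43 and −0.58). At day 9.5 it was also lost without non-pregnant replicate 1 (−0.46) or day 9.5 replicate 1 or 4 (−0.44 and −0.48). The host gene Blcap did not move with Nnat in transgenic islets, with 8.0 in Pdx1-creLate and 8.18 in control (−0.18 ± 0.10, adjusted p = 0.388). After birth Blcap fell by 0.25 ± 0.08 (8.05 at 10 days post partum against 8.30 in non-pregnant islets, adjusted p = 0.0263), a call that ended without 10 days post partum replicate 3 or 4 or non-pregnant replicate 1 or 3, at −0.20, −0.23, −0.18 and −0.25.

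Sgce and Mest are paternally expressed genes of chromosome 6. Sgce (probe set 10542965, 4674350 to 4747204) encodes epsilon-sarcoglycan, a membrane protein, and Mest (probe set 10537062, 30733506 to 30748466) encodes a protein of the hydrolase fold family that is used as a marker of fat cell growth. Mest measured 5.3, 6.0, 5.4 and 5.4 in Pdx1-creLate islets and 6.4, 6.8, 6.4 and 6.3 in control islets (−0.95 ± 0.15, 1.93-fold lower). No transgenic array reached the lowest control array, and control was the next group above Pdx1-creLate. In pregnancy Mest kept close to its non-pregnant level, with −0.01 at mid-pregnancy and −0.25 at day 15.5, neither called. At 10 days post partum it measured 6.5, 6.7, 6.6 and 6.3, against 7.0, 7.0, 6.8 and 6.7 in non-pregnant islets (−0.35 ± 0.10), overlapping at 6.7. That call was lost without 10 days post partum replicate 1 or 4 or non-pregnant replicate 1 or 2 (−0.34, −0.28, −0.31 and −0.31).

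Sgce measured 7.0, 6.9, 6.6 and 6.5 in Pdx1-creLate islets and 7.2, 7.7, 7.1 and 7.4 in control islets (−0.60 ± 0.14, 1.52-fold lower), apart by 0.1 at the nearest arrays. The call ended without Pdx1-creLate replicate 3 or 4 or control replicate 2 or 4 (−0.55, −0.52, −0.48 and −0.58). In the C57bl6/J groups the means of Sgce spanned 0.55, with the lowest at 10 days post partum. The deviations of Sgce from its group mean moved with delta-cell markers (r = 0.67) and alpha-cell markers (r = 0.57) over the 39 arrays, and their part in its differences was not tested. None of the measured neighbours of these genes was called lower in Pdx1-creLate islets. Peg10, a retrotransposon-derived gene that shares a paternally expressed promoter region with Sgce, had 6.45 in Pdx1-creLate islets and 6.30 in control islets (+0.15 ± 0.13, adjusted p = 0.598). Copg2, beside Mest, had +0.15 ± 0.09 (adjusted p = 0.388), and Mir335, which lies in a Mest intron, had 5.03 in Pdx1-creLate and 5.33 in control islets (−0.30, adjusted p = 0.108). Pon2, a lactonase gene downstream in the Sgce cluster, rose by 1.35 ± 0.15 in Pdx1-creLate islets (8.75 against 7.40 in control islets, 2.55-fold, adjusted p = 4.23e-05). It also rose at mid-pregnancy by 0.62 ± 0.08 (adjusted p = 2.35e-06) and at day 18.5 by 0.73 (adjusted p = 5.56e-06).

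Zdbf2 (probe set 10346878, chromosome 1, 63200358 to 63314576) encodes a protein with a DBF4-type zinc finger. It measured 7.2, 7.8, 7.6 and 7.3 in Pdx1-creLate islets and 8.2, 8.2, 7.9 and 8.1 in control islets (−0.63 ± 0.13, 1.54-fold lower), with 0.1 between the nearest arrays. At day 15.5 it was −0.48 ± 0.12 relative to non-pregnant islets, with 7.9, 7.7, 7.9 and 7.8 against 8.4, 8.5, 8.2 and 8.1. Its neighbour Adam23, a gene of the disintegrin and metalloprotease family, fell by 0.63 ± 0.11 in Pdx1-creLate islets (5.0 against 5.63 in control islets, adjusted p = 0.0019), while Gpr1 had +0.08 (adjusted p = 0.759). Over all listed genes near the 10 members, 25 of 34 were measured, and 1 was called higher and 1 lower in Pdx1-creLate islets, namely Pon2 and Adam23, near the 6.59% of all genes called. The median difference of these 25, which include no gene of the Peg3 locus, was 0.00. At 10 days post partum 1 was called higher and 2 lower relative to non-pregnant islets, where 12.2% of all genes were called, namely Pon2, Blcap and Adam23 (−0.33 ± 0.10, adjusted p = 0.0255). Adam23 lost that call without 10 days post partum replicate 3 or 4 (−0.30 and −0.23) or non-pregnant replicate 1, 2 or 3 (−0.33, −0.29 and −0.33).

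Gatm (probe set 10487011, chromosome 2, 122594473 to 122611277) encodes arginine:glycine amidinotransferase, the first enzyme of creatine synthesis. It was the member with the largest difference in transgenic islets, at 10.4, 10.3, 10.2 and 10.3 in Pdx1-creLate and 8.3, 8.5, 8.2 and 8.5 in control islets (+1.93 ± 0.10, 3.80-fold higher). The transgenic arrays lay above every other array of the series. In C57bl6/J females Gatm measured 8.7, 8.6, 8.8 and 8.5 in non-pregnant islets, 9.4, 9.5, 9.6 and 9.6 at day 9.5, and 9.8, 9.9, 9.9 and 9.8 at day 18.5. Differences from the non-pregnant level were +0.35 ± 0.10 at day 3.5, +0.50 ± 0.09 at day 6.5, +0.88 ± 0.09 at day 9.5 and +1.2 ± 0.09 at day 18.5. It remained at 9.5, 9.6, 9.4 and 9.6 at 10 days post partum, still +0.88 ± 0.09 against non-pregnant islets and −0.33 ± 0.09 against day 18.5. The 5 measured genes around it had none called in transgenic islets, with Duoxa2 at +0.28 (adjusted p = 0.148) and Slc30a4, a zinc transporter gene, at +0.05 (adjusted p = 0.844). With the acinar marker mean as a covariate the transgenic difference of Gatm was +1.91 and that of Zim1 −1.70.

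The Meg3 locus of chromosome 12 gives a long maternally expressed run of non-coding RNA. Meg3 (probe set 10398326, 109540996 to 109571729) comes first, Rian (probe set 10398360, 109603945 to 109661716) hosts small nucleolar RNAs, and microRNA genes lie between them, inside Rian and downstream of it. Dlk1, Rtl1 and Dio3 are the paternally expressed protein-coding genes of the locus. The first promoter window of Meg3 is shown because Meg3 varied with the downstream transcripts.
Meg3 promoter, chr12:109540746-109541045 (plus strand): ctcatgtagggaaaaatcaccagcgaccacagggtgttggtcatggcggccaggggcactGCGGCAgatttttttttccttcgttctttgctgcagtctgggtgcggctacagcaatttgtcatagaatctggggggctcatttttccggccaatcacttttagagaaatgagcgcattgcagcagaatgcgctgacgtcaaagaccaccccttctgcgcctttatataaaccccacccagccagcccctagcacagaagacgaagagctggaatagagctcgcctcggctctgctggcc
The window holds 1 hexamer and 13 CpG dinucleotides. Meg3 measured 11.4, 11.4, 11.2 and 11.1 in Pdx1-creLate islets and 10.8, 10.9, 10.8 and 10.9 in control islets, a difference of +0.43 ± 0.10 (1.34-fold higher) without overlap. The call was lost without Pdx1-creLate replicate 1 (+0.38) and with the acinar marker mean as a covariate (+0.36). The acinar mean was 8.23 to 10.16 in Pdx1-creLate islets and 8.11 to 9.4 in control islets, and its part in the difference was not tested further. Rian measured 6.7, 6.9, 7.2 and 6.8 in Pdx1-creLate islets and 6.0, 5.8, 6.7 and 6.6 in control islets (+0.63 ± 0.18, not called). Both groups contain a value of 6.7. Without control replicate 3 or 4 Rian was called, at +0.77 and +0.73. Dlk1 had −0.05, Rtl1 +0.13, Dio3 −0.08 and Begain 0.00 in the same comparison, with adjusted p = 0.836, 0.603, 0.840 and 1.

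In C57bl6/J females Meg3 was highest early and lowest after birth. It measured 11.3, 11.6, 11.3 and 11.2 in non-pregnant islets, 11.5, 11.6 and 11.7 at day 3.5, 10.9, 10.8, 10.8 and 10.8 at day 15.5, and 10.6, 10.7, 10.5 and 10.8 at 10 days post partum. The difference from non-pregnant islets was −0.53 ± 0.13 at day 15.5 and −0.70 ± 0.13 at 10 days post partum (1.62-fold lower). Arrays of both these groups lay below all non-pregnant arrays. Day 18.5 was uneven, with 10.6, 11.3, 11.3 and 11, and its difference was not called. Rian had its highest mean at day 3.5, with 7.5, 7.3 and 7.7 against 7.0, 6.8, 6.9 and 6.8 in non-pregnant islets (+0.63 ± 0.15, 1.54-fold higher). These arrays did not overlap, the difference was not called, and day 3.5 lay above the next group, day 9.5, without overlap. At day 15.5 Rian was −0.48 ± 0.14 relative to non-pregnant islets, and that call ended without day 15.5 replicate 3 or 4 (−0.48 and −0.41) or non-pregnant replicate 1, 2 or 3 (−0.43, −0.50 and −0.47).

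Of 56 listed microRNA genes of the locus 40 were measured. These genes were matched to RefSeq by symbol, and the positions of their probes were not examined. Whether the values come from precursor or mature RNA was not tested, so they are not read as levels of mature microRNA. Mature sequences are printed for genes called in the comparisons below, and for Mir411, whose 3p arm shares a seed with that of Mir379. They run 5′ to 3′, with the seed (bases 2 to 8), the part that pairs with target messages, in capitals.
mmu-miR-379-5p: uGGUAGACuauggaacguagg
mmu-miR-379-3p: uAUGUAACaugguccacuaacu
mmu-miR-411-3p: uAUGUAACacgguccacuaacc
mmu-miR-380-5p: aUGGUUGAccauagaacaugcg
mmu-miR-380-3p: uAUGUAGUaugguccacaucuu
mmu-miR-376a-3p: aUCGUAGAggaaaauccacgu
mmu-miR-300-3p: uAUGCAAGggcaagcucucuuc
mmu-miR-539-5p: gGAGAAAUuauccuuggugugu
mmu-miR-382-5p: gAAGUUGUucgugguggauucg
mmu-miR-377-3p: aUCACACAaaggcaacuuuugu
mmu-miR-541-5p: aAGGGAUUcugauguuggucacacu
The 3p arms of miR-379 and miR-411 share the seed AUGUAAC. The 5p seed of miR-379, GGUAGAC, occurs in 1 of the 76 mature sequences of these genes. All of these sequences lie downstream of Rian, between 109709065 and 109742487 on the plus strand of chromosome 12, and all are from RefSeq.

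Up to 20 of the 40 microRNA genes were called lower in late pregnancy or after birth than in non-pregnant islets. Of the 40 genes 20 were called lower at 10 days post partum and 0 higher, relative to non-pregnant islets, where 7.78% of all genes were called lower. Their median difference was −0.35, against 0.03 over all genes. Mir377 fell by 1.10 ± 0.20 (5.90 against 7.0, adjusted p = 0.00027), and its arrays ran from 5.7 to 6.0 at 10 days post partum and from 6.7 to 7.3 in non-pregnant islets. Mir382 fell by 0.88 ± 0.15 (6.98 against 7.85, adjusted p = 0.000176), Mir300 fell by 0.80 ± 0.17 (6.0 against 6.80, adjusted p = 0.00207) and Mir541 fell by 0.80 ± 0.15 (4.68 against 5.48, adjusted p = 0.000558). All 29 genes with a hairpin position downstream of Rian had differences below 0, and 18 of them were called. The microRNA genes share a locus and the same non-pregnant arrays, and their mean varied with Meg3 from array to array. They are therefore not independent observations, and the counts are descriptions. Mir666, whose mature sequences also lie downstream, had no hairpin position and is not among the 29. Markers of some cell types were also lower at 10 days post partum, without overlap, and their part was not tested. Stellate markers averaged 6.55 at 10 days post partum and 6.99 in non-pregnant islets, endothelial markers 7.69 at 10 days post partum and 7.98 in non-pregnant islets, and PP-cell markers 11.11 at 10 days post partum and 11.47 in non-pregnant islets. At day 15.5 12 of 40 fell and none rose (median −0.34, 4.53% of all genes lower). At day 18.5 13 of 40 fell and none rose (median −0.33), where 11.1% of all genes were called in either direction. The counts depended on single arrays. Without non-pregnant replicate 1, 10 were called at 10 days post partum, 6 at day 15.5 and 6 at day 18.5, and without non-pregnant replicate 2, 7 were called at day 15.5 and 7 at day 18.5. Without non-pregnant replicate 4, 19 were called at day 15.5, and without day 18.5 replicate 1 or 4 the count at day 18.5 was 6 or 8. It was 5 with the array SD as a covariate and 23 with array weights. No microRNA gene was called higher in these 3 comparisons under any alternative run. Control islets, from mice that were not pregnant, also had 19 of the 40 genes called lower than the same non-pregnant arrays (median −0.35). Strain, sex and experiment differ in that comparison too.

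Day 3.5 had the opposite sign, and day 6.5 did not, with a median of −0.08 and 0 called (5 at an unadjusted p under 0.05). At day 3.5 the median difference of the 40 genes was 0.26, against 0.02 over all genes, and 3 rose while 0 fell, where 0.0451% of all genes were called. These were Mir379 (4.07 against 3.33 in non-pregnant islets, +0.74 ± 0.11, adjusted p = 0.00253), Mir539 (6.60 against 6.0, +0.60 ± 0.12, adjusted p = 0.0388) and Mir376a (3.27 against 2.70, +0.57 ± 0.11, adjusted p = 0.0388). A further 17 had an unadjusted p under 0.05 without a call. Mir379 and Mir376a were dim, well below the array medians of 5.8 to 6.0, and the lowest value on any array was 1.7. With the dimmest 25% of genes left out, 1 listed gene was called in place of 3. Of the genes with a hairpin position downstream of Rian, 28 of 29 lay above 0 with a median of 0.46, and here too they are not independent observations. The 8 upstream of Rian had a median of −0.01. The mean of the 40 genes was 6.10 to 6.28 at day 3.5 and 5.67 to 6.08 in non-pregnant islets, so the groups did not overlap. Mir539 and Mir376a lost their call when any day 3.5 array was left out (+0.55 to +0.65 and +0.50 to +0.60), and also without non-pregnant replicate 2, 3 or 4. The count was 9 without non-pregnant replicate 1, of which 8 were higher and 1 lower, and it was 1 without any other array of these groups. The day 3.5 group has 3 arrays and the lowest acinar marker mean of all groups, 6.80 against 8.71 in non-pregnant islets, and its part in the result was not tested beyond the covariate, under which Mir379 kept its call. Mir379 lost its call when all 39 arrays were fitted together (adjusted p = 0.0622), where 0 microRNA genes were called, and when day 3.5 and non-pregnant arrays were fitted alone (adjusted p = 0.151).

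**Figure D3:**
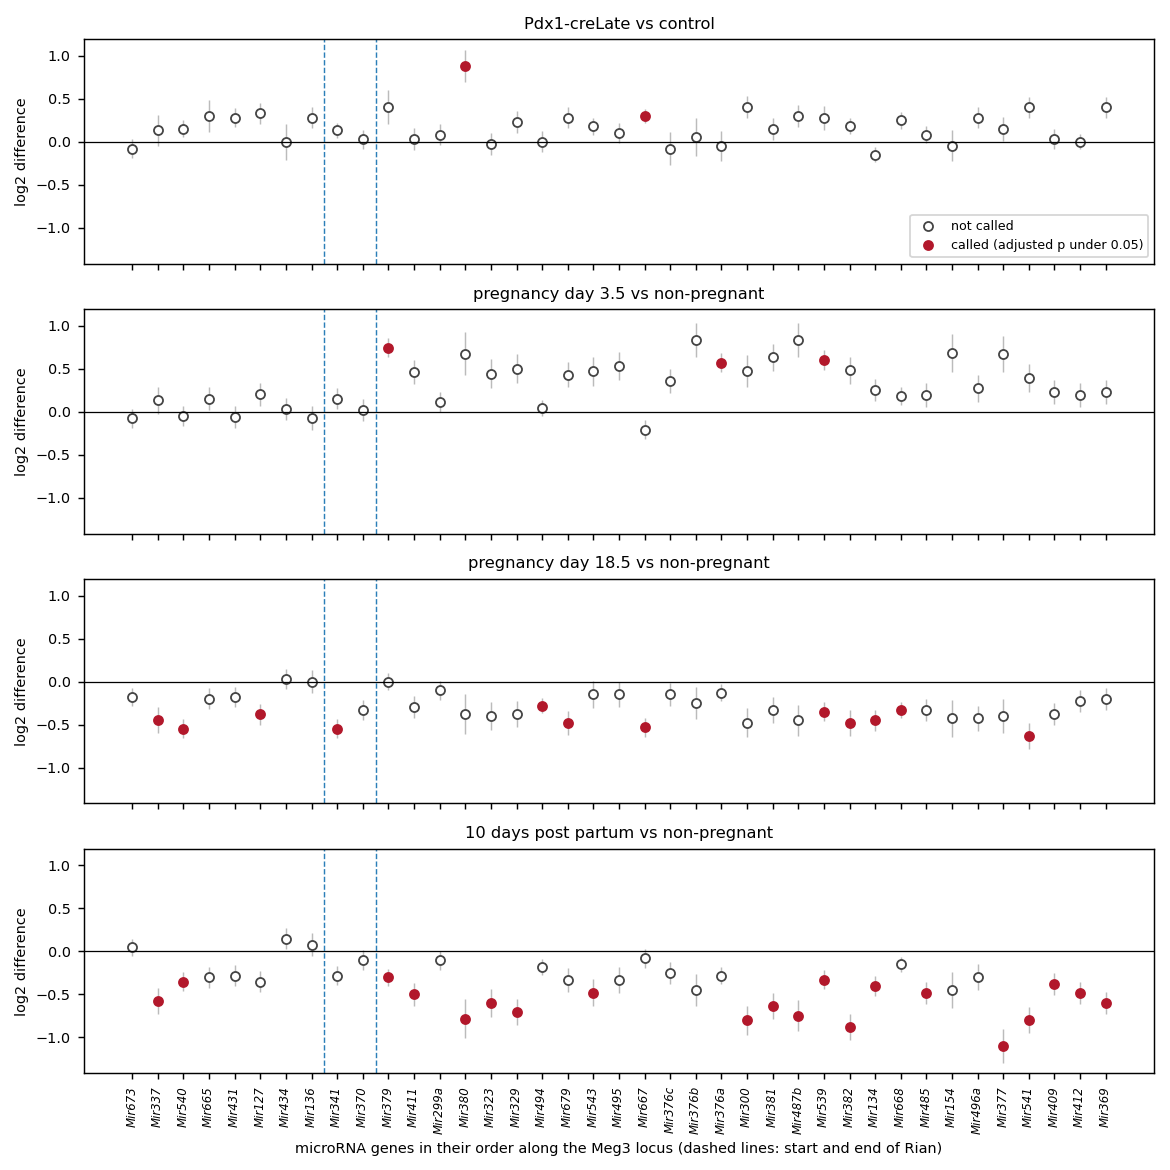
Log2 difference with SE (vertical axis) of 39 microRNA genes in their order along the Meg3 locus (horizontal axis). Mir666, which had no hairpin position, is not shown. The 4 comparisons are Pdx1-creLate minus control, and day 3.5, day 18.5 and 10 days post partum minus non-pregnant. Filled points were called and the dashed lines mark the start and end of Rian; downstream of Rian 28 of 29 genes lie above 0 at day 3.5 and all 29 lie below 0 at 10 days post partum.

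In transgenic islets 2 of the 40 microRNA genes were called, near the 6.59% of all genes. Mir380 rose by 0.88 ± 0.19 (5.70 in Pdx1-creLate against 4.83 in control islets, adjusted p = 0.0103) and Mir667 by 0.30 ± 0.08 (7.68 against 7.38, adjusted p = 0.045). In all 12 had an unadjusted p under 0.05, the median difference was 0.15 against −0.03 over all genes, and the mean of the 40 genes was 5.65 to 5.86 in Pdx1-creLate islets and 5.54 to 5.68 in control islets, overlapping. Mir380 lost its call without Pdx1-creLate replicate 3 (+0.84), and Mir667 lost it when any array but Pdx1-creLate replicate 2 was left out (+0.28 to +0.31). The count was 0 without Pdx1-creLate replicate 3 and 1 without control replicate 2 or 4.

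The arrays of a group also differed from each other, and these deviations from the group means were not used to pick the members. Pearson's r and Spearman's rho were computed between them for 55 pairs, made of the 10 genes and the mean of the 40 microRNA genes. Permutation within groups (100000 resamples, two-sided) gave 3 pairs with an adjusted p under 0.05, all positive and all within a locus. Meg3 varied with the microRNA mean (r = 0.72, permutation p = 0.00031, adjusted p = 0.0102, rho = 0.64, permutation p = 0.00062, adjusted p = 0.017). Rian varied with it too (r = 0.58, permutation p = 0.00037, adjusted p = 0.0102, rho = 0.61, permutation p = 0.00026, adjusted p = 0.0143). Peg3 varied with Zim1 (r = 0.55, permutation p = 0.00253, adjusted p = 0.0464, rho = 0.58, permutation p = 0.00102, adjusted p = 0.0187). Without the 2 arrays farthest from the median on the x axis, r was 0.62, 0.54 and 0.45 in that order, and with the acinar mean removed it was 0.71, 0.59 and 0.61. Meg3 and Rian had r = 0.51 (permutation p = 0.00898, adjusted p = 0.0711, rho = 0.45, permutation p = 0.0164, adjusted p = 0.125). Peg3 and Usp29, whose promoters overlap, had r = 0.07, and Usp29 and Zim1 had r = 0.01.

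**Figure D4:**
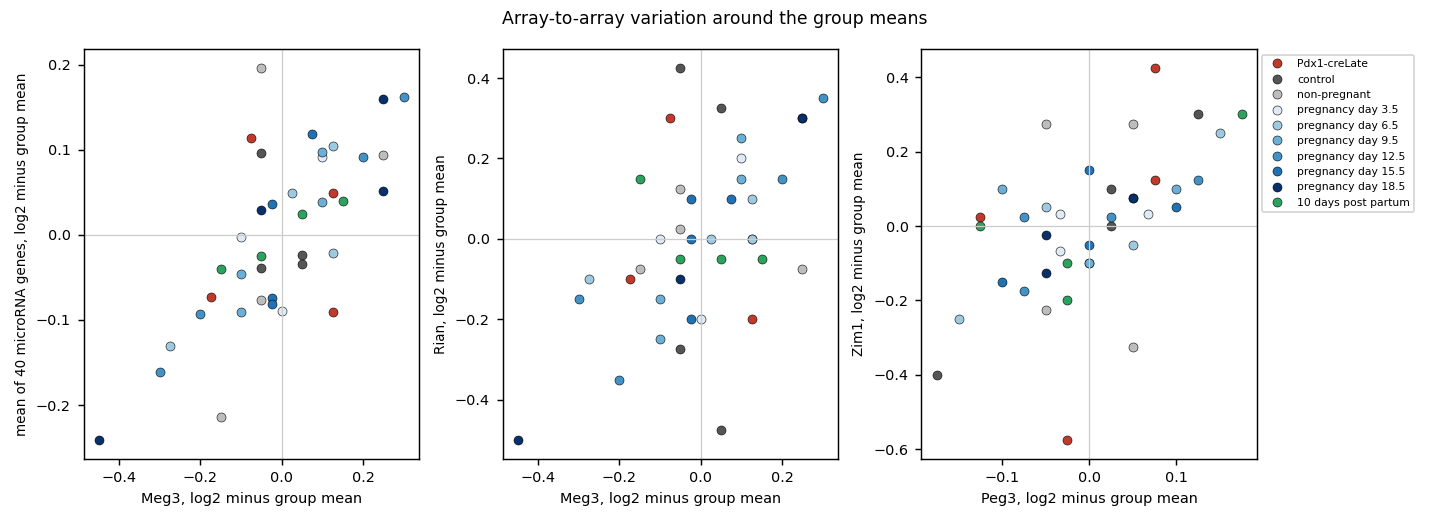
Deviation of each array from its group mean (log2) for 3 pairs of transcripts of the same locus; each of the 39 dots is an array, coloured by group. Meg3 rises with the mean of 40 microRNA genes (r = 0.72) and with Rian (r = 0.51), and Peg3 rises with Zim1 (r = 0.55).

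The transgenic and the mid-pregnancy differences were set against each other in 1 model of all arrays. The experiments also differ in strain and sex. A response that depends on strain, sex or experiment cannot be told apart here from transgene against pregnancy. Of the 10 members 5 were called in this difference of differences, 3 higher and 2 lower, where 5.48% of all genes were called, 1.63% higher and 3.86% lower. Gatm had +1.93 in transgenic islets and +0.96 ± 0.07 at mid-pregnancy, a difference of +0.97. Zim1 had −1.63 in transgenic islets and −0.85 ± 0.10 at mid-pregnancy (difference −0.78), and Mest had −0.95 in transgenic islets and −0.01 at mid-pregnancy (difference −0.94). The differences of the non-coding RNAs lay on opposite sides of 0, but those at mid-pregnancy were not called and their arrays overlapped the non-pregnant ones. Meg3 had +0.43 in transgenic islets and −0.24 ± 0.11 at mid-pregnancy (difference +0.67), and Rian +0.63 in transgenic islets and −0.18 at mid-pregnancy (difference +0.80). The adjusted p in limma at mid-pregnancy was 0.176 for Meg3 and 0.436 for Rian, and Rian was not called in transgenic islets either (0.0543). For Rian the call in the difference of differences ended without Pdx1-creLate replicate 3 or control replicate 2 (+0.70 and +0.64). Nnat (−0.95 in transgenic islets, −0.70 ± 0.13 at mid-pregnancy) and Peg3 (−0.45 in transgenic islets, −0.33 ± 0.06 at mid-pregnancy) were not called. Of the 40 microRNA genes 7 were called and all were higher, with Mir380 at +1.2 ± 0.30 (adjusted p = 0.0105) and Mir541 at +0.83 (adjusted p = 0.00507). That count was 3 without non-pregnant replicate 1 and 4 without non-pregnant replicate 2, Pdx1-creLate replicate 2 or control replicate 3 or 4.

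The step across birth, 10 days post partum against day 18.5, had 3 members called, all lower, where 30.2% of all genes were called, 18.4% lower. They were Gatm (−0.33 ± 0.09), Meg3 (−0.40 ± 0.13) and Mest (−0.35 ± 0.10). The call of Meg3 ended without day 18.5 replicate 2 or 3 (−0.32 each) and that of Mest without 10 days post partum replicate 4 (−0.28). Leaving out 10 days post partum replicate 3 gave 6 called members, and adding the spread of each array (its SD) as a covariate gave 0. Control and non-pregnant islets also differed in these genes. Of the 10 members 7 were lower in control islets, where 20% of all genes were called, 6.96% lower, with Nnat at −1.0 ± 0.16, Rian at −0.60 ± 0.16 and Meg3 at −0.50 ± 0.12. The count was 4 without control replicate 1 or non-pregnant replicate 1, and Rian lost its call without control replicate 2 (−0.44). Of the 40 microRNA genes 19 were called lower in control than in non-pregnant islets and 0 higher, with a median of −0.35. That microRNA count was 13 without non-pregnant replicate 1. Strain, sex and experiment cannot be told apart here, so levels set across the experiments, such as the order of the 10 groups, are descriptions.

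Over the 39 arrays the genes most like each member in pattern were named by Pearson's r, as a description in which shared group differences set most of the likeness. Slc7a2 and Pcdh15 were nearest to Zim1 (r = 0.95 each), B3galnt1 to Gatm (r = 0.96), Vwa5b2 to Peg3 (r = 0.93) and Lpin2 to Nnat (r = 0.93). For Rian the nearest were microRNA genes of its own locus, Mir541 and Mir487b (r = 0.81 each) and Mir300 (r = 0.80). For Meg3 they were Spaca6 (r = 0.88), Mir487b and Mir329 (r = 0.87 each). No member was among the 3 nearest genes of another member.

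Of 53 listed imprinted genes of other loci 42 were measured, and in Pdx1-creLate islets 1 was called higher and 3 lower, where 6.59% of all genes were called. Cd81, a tetraspanin, fell by 0.65 ± 0.12 (9.23 against 9.88 in control islets, adjusted p = 0.00436), Rasgrf1, an exchange factor for RAS, fell by 0.48 ± 0.08 (6.55 against 7.03, adjusted p = 0.00229), and Slc38a4, an amino acid transporter, fell by 0.45 ± 0.09 (10.73 against 11.18, adjusted p = 0.00654). The potassium channel Kcnk9 rose by 0.60 ± 0.14 (6.03 against 5.43, adjusted p = 0.0153), a call lost without Pdx1-creLate replicate 3 or 4 (+0.61 and +0.54) or any of control replicates 1, 2 and 3 (+0.53, +0.56 and +0.56). Igf2 had −0.20, Grb10 +0.13, Plagl1 +0.23 and Cdkn1c −0.03, none called. After birth, at 10 days post partum, 1 was called higher and 8 lower relative to non-pregnant islets (12.2% of all genes called), among them Gab1 (−0.48, adjusted p = 0.00367) and Cd81 (−0.45, adjusted p = 0.00172).

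All 17 genes of imprint maintenance and DNA methylation were measured. In Pdx1-creLate islets the de novo methyltransferase Dnmt3b rose by 0.68 ± 0.11 (7.05 against 6.38 in control islets, adjusted p = 0.00147) and the other 16 were not called, where 6.59% of all genes were. Zfp57 was dim in both groups, with 4.88 in Pdx1-creLate and 5.0 in control islets (−0.13), and Trim28 had −0.05. At mid-pregnancy 2 rose and 3 fell, where 9.24% of all genes were called. Uhrf1, which brings the maintenance methyltransferase to replicating DNA, rose by 0.73 ± 0.10 (6.18 against 5.45 in non-pregnant islets, adjusted p = 3.04e-06), and Dnmt3b rose by 0.54 ± 0.09 (7.04 against 6.50, adjusted p = 3.41e-05). The falls were small, with Dnmt3a at −0.20 (adjusted p = 0.0181), Zfp445 at −0.20 (adjusted p = 0.0298) and Tet3 at −0.24 (adjusted p = 0.0475). All of these calls ended without non-pregnant replicate 1 or 2, at −0.15 to −0.25, those of Dnmt3a and Tet3 without replicate 3 (−0.19 and −0.22), and that of Tet3 without day 15.5 replicate 1, 3 or 4 (−0.24, −0.23 and −0.24). The arrays do not measure methylation.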

How the data were processed

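The authors deposited log2 values from RMA (robust multi-array average) in Affymetrix Expression Console, per the submitters' processing notes. The software version, and whether all arrays went through RMA as a set, are not given in the sources used here. RMA quantile-normalizes, so a change shared by most genes would not be seen. Of 35556 probe sets 21789 had 1 symbol, and the one with the highest mean per symbol gave 19938 genes, with no filter on low values. In R 4.3.3, lmFit and eBayes of limma 3.58.1 gave two-sided p-values, which were adjusted by Benjamini-Hochberg across the whole table. The transgenic comparison used its 8 arrays, the reproductive comparisons the 31 C57bl6/J arrays, and the difference of differences and control against non-pregnant all 39. The number of arrays limits the precision. The procedure was tested on simulated data.

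The members and lists were chosen with earlier results of these data known. All members were named, then up to 5 called genes per list and comparison by size, the 3 genes most alike over the arrays, and measured genes of the same loci. The text leaves some out. Correlations within groups were added after the data were seen. Promoters and mature microRNAs are RefSeq's for GRCm38.p6, matched by symbol for 9 of 10 members and 40 of 40 microRNA genes, and motifs were searched on both strands. Alternatives were the dimmest 25% of genes left out, quantile normalization, centring on medians, a trended and robust variance, weights for each array, averaging the probe sets of a gene, a covariate (acinar marker mean or array SD), a replicate block, other sets of arrays in the model, and each array left out in turn. Same-numbered replicates were not treated as pairs. Python 3.11.15 with scipy 1.17.1, pandas 2.3.3, numpy 2.4.6 and matplotlib 3.10.9 made the tables and figures.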

Additional observations from a re-analysis of the deposited data

Results flagged for a closer look

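In 8 of 90 checks of a gene in a group of 4 arrays, 1 array lay apart from the other three by more than Dixon's critical value. Chance alone passes that value in about 1 of 20 groups of unrounded normal values. The deposited values are rounded, and an array always passes where the other three are equal, so that rate does not apply here. Mest in Pdx1-creLate replicate 2 was 6.0, where the other three were 5.3 to 5.4. Rian at 10 days post partum replicate 3 was 6.7, where the others were 6.5. The remaining 6 differ from their group by 1 rounding step of the deposited values. They are Sgce at day 9.5 replicate 4 (7.3 against 7.4) and at day 12.5 replicate 2 (7.2 against 7.1), Mest at day 15.5 replicate 1 (6.7 against 6.6), Meg3 at day 15.5 replicate 1 (10.9 against 10.8), and Zdbf2 at day 9.5 replicate 3 (8.0 against 8.1) and day 12.5 replicate 2 (7.8 against 7.9).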

How the results depend on the processing

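Of 578 counts of called genes under the alternatives, 519 were within 1.5 times the reported count; the cause of the other changes was not tested. Of 2890 results of single members 2706 kept their direction and side of the threshold, 115 lost the call, 37 gained it and 32 changed sign. Of 154 results of named list genes 66 kept their call under every alternative. Signal over background limits dim genes such as Usp29 and Mir379.

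For the listed genes other than the members, the count at day 3.5 was 3, and 1 with the dimmest genes left out, the acinar mean, the array SD or the replicate block, 8 with array weights, 0 with all 39 arrays or only the groups compared, and 1 to 10 with an array left out. At day 6.5 it was 0, and 2 with a trended variance, 1 with the acinar mean and 0 to 2 with an array left out. At day 9.5 it was 22, and 14 with quantile normalization, 14 with centring, 7 with the array SD and 10 to 27 with an array left out. At day 12.5 it was 8, and 13 with weights and 5 with only the groups compared. At day 15.5 it was 25, and 15 to 29 with an array left out. At day 18.5 it was 25, and 13 with the array SD, 15 with only the groups compared and 14 to 30 with an array left out. At mid-pregnancy it was 13, and 23 with weights and 8 to 18 with an array left out. At 10 days post partum against non-pregnant it was 38, and 23 with only the groups compared and 23 to 45 with an array left out. Against day 18.5 it was 37, and 17 with quantile normalization, 0 with the array SD and 20 to 43 with an array left out. Among the C57bl6/J groups it was 92, and 55 with the array SD. For the difference of differences it was 14, and 9 with the acinar mean and 9 to 15 with an array left out. For control against non-pregnant it was 37, and 24 with only the groups compared.

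For the members, the count at day 3.5 was 0, and 1 with weights and 0 to 1 with an array left out. At day 9.5 it was 4, and 2 with centring. At day 12.5 it was 6, and 3 with only the groups compared and 2 to 5 with an array left out. At 10 days post partum against day 18.5 it was 3, and 1 with quantile normalization, 7 with centring, 6 with weights, 0 with the array SD and 2 to 6 with an array left out. For control against non-pregnant it was 7, and 4 with centring and 4 to 7 with an array left out.

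Signs turned mostly where differences were near 0. With the array SD, 10 days post partum minus day 18.5 gave −0.18 for Dnmt3l, −0.03 for Klf14, −0.07 for Slc22a2, 0.09 for Smchd1, −0.08 for Tspan32, 0.24 for Nnat, 0.09 for Sgce and 0.16 for Zdbf2, and day 9.5 gave −0.19 for Sgce. Quantile normalization gave −0.02 for Usp29 across birth and −0.03 for Sgce at day 9.5. Centring gave 0.05 for Meg3 at day 9.5, 0.03 for Mest at mid-pregnancy, and −0.05 for Usp29 and −0.05 for Zim1 across birth. The acinar mean gave 0.11 for Zim1 at day 3.5. Leaving out an array gave −0.10 to 0.03 for Meg3 at day 9.5, −0.07 to 0.03 for Mest at mid-pregnancy, −0.01 to 0.16 for Mest at day 12.5, −0.33 to 0.07 for Nnat at day 3.5, −0.39 to 0.01 for Nnat in the difference of differences, −0.22 to 0.05 for Rian across birth, −0.01 to 0.07 for Rian at day 6.5, −0.01 to 0.16 for Rian at day 9.5, −0.03 to 0.08 for Sgce at day 9.5, −0.03 to 0.14 for Zim1 across birth, −0.17 to 0.03 for Zim1 at day 3.5 and −0.18 to 0.02 for Zim1 at day 6.5.

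Same-numbered arrays of different groups had correlated deviations of −0.34 to 0.31, and in no comparison were all pairs above 0.1. Against non-pregnant arrays, 3 of 4 day 12.5 arrays correlated best with their own number, and 0 of 4 at day 9.5 or day 18.5. Of the Pdx1-creLate arrays 2 of 4 did so with control arrays. The numbers were not taken as pairs, and so few arrays cannot settle whether they are. With the replicate block the members called in transgenic islets were 8 of the 9, Peg3 being lost at −0.45.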
